A study of Mus musculus with 4 samples.

Results

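Axon guidance ligands and their receptors were examined for binding of FOXR2, a forkhead box transcription factor, in a mouse brain tumor cell line. The members were the protein-coding genes of the GENCODE M21 annotation whose symbols name a semaphorin, plexin, neuropilin, ephrin, Eph receptor, Slit, Robo, netrin, Dcc or Unc5 gene. The symbol pattern took in 71 of 21911 protein-coding genes on the assembled mouse chromosomes. It also caught 2 genes by name only, Unc50, an RNA-binding protein of the inner nuclear membrane, and Unc5cl, a gene named for its likeness to the Unc5 receptors, and 69 members remained without them. The grouping is by family name.

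Guidance ligands are secreted or membrane-bound proteins that attract or repel growing axons and migrating neurons. Semaphorins act through plexins, often with neuropilins as co-receptors, ephrins through the Eph receptor tyrosine kinases, Slits through Robo receptors, and netrins through Dcc and the Unc5 receptors. In the embryonic forebrain these pairs sort migrating interneurons and steer axon tracts, and several of them also act in blood vessels and in glial precursors.

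FOXR2 carrying a C-terminal V5 tag had been introduced into embryonic neural stem cells of C57BL/6J mice by in utero electroporation (IUE), from a piggyBac vector with the CAG promoter, together with CRISPR disruption of p53. A line grown as neurospheres from such a tumor, Foxr2 p53LOF, was profiled in 2 replicates by CUT&RUN, in which an antibody (here against V5) directs a nuclease to cut out the bound chromatin. The V5 control was 2 replicates with the same antibody on cells of another C57BL/6J IUE model, labelled H3.3G34R, that has no V5 tag. The control therefore differs from the Foxr2 p53LOF line in its driver as well as in the tag, and effects of the driver cannot be told apart from those of the tag. No source used here says that replicates came from separate cultures, so the spread between them may be technical. Electroporation was done in midgestation embryos, the age at which the tumor was taken is not given in the sources used here, and a peak list cannot be checked for markers of the cell type.

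Each deposited file lists the peaks that MACS2 called in 1 library, with a fold, the number of fragments at the summit plus 1 over the background plus 1. The Foxr2 p53LOF libraries held 31909 and 38580 peaks and the control libraries 308 and 124. A fold above 6 took 13 and 18 fragments in the Foxr2 p53LOF replicates, so that 1 fragment more or less moved a fold by 0.442 and 0.329. Bases covered in both Foxr2 p53LOF replicates by peaks that pass the filters make up a reproducible site. The filters, which follow the methods, are a fold above 6, −log10 q above 6, a length below 10000 bp and less than 10 bp shared with any control peak. The further step of the study, overlap with open chromatin of the same model, was not used here. A gene region is the gene body with 10 kb either side, and a promoter site is 1 that comes within 1 kb of where a protein-coding transcript of the gene begins. The series holds 11947 reproducible sites in all.

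Of the 71 members, 36 (50.7%) held at least 1 reproducible site in their region, where 50.0% of all protein-coding genes had one. A promoter site was present at 22 members (31.0%), against 39.3% of all genes. Without Unc50 and Unc5cl the counts were 35 of 69 (50.7%) and 21 of 69 (30.4%). In all, 10 of the sites lay at the start of a neighboring gene and not at a start of the member. When only sites at a start of the member itself or at no gene's start were counted, 31 members (43.7%) had one, against 43.6% of all genes.

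In the V5 control no library had a peak in any member's region. The Foxr2 p53LOF replicates had 243 and 269 peaks there, touching 63 and 66 members, and the control replicates 0 and 0. The groups do not overlap, and the exact two-sided permutation test over the 4 libraries gave p = 0.333, the smallest value that 2 against 2 allows. Member regions held 0.762% and 0.697% of the Foxr2 p53LOF peaks, and with control lists of 308 and 124 peaks a count of 0 says little about the members.

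The peaks at guidance gene starts were frequent and low. Before any filter, 45 members (63.4%) had a peak within 1 kb of a start in both replicates, against 51.5% of all genes, and 61 members (85.9%) had a peak in the region in both, against 63.7%. The median highest fold at a start was 5.74 in replicate 1 (51 members with a peak) and 6.90 in replicate 2 (49 members), against 8.84 and 9.86 over all genes with a peak. With a minimum fold of 10, 13 members (18.3%) kept a site in the region and 6 (8.45%) a promoter site, where 27.8% and 19.8% of all genes did. With only the minimum on fold dropped and the other filters kept, 29 members (40.8%) had a promoter site, against 43.1%. The members' share at promoters was thus above that of all genes before any filter and below it with filters. The 6 promoters left at fold 10 were those of Plxnb2, Efna1, Sema4c, Plxnd1, Sema6a and Nrp2.

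**Figure D1:**
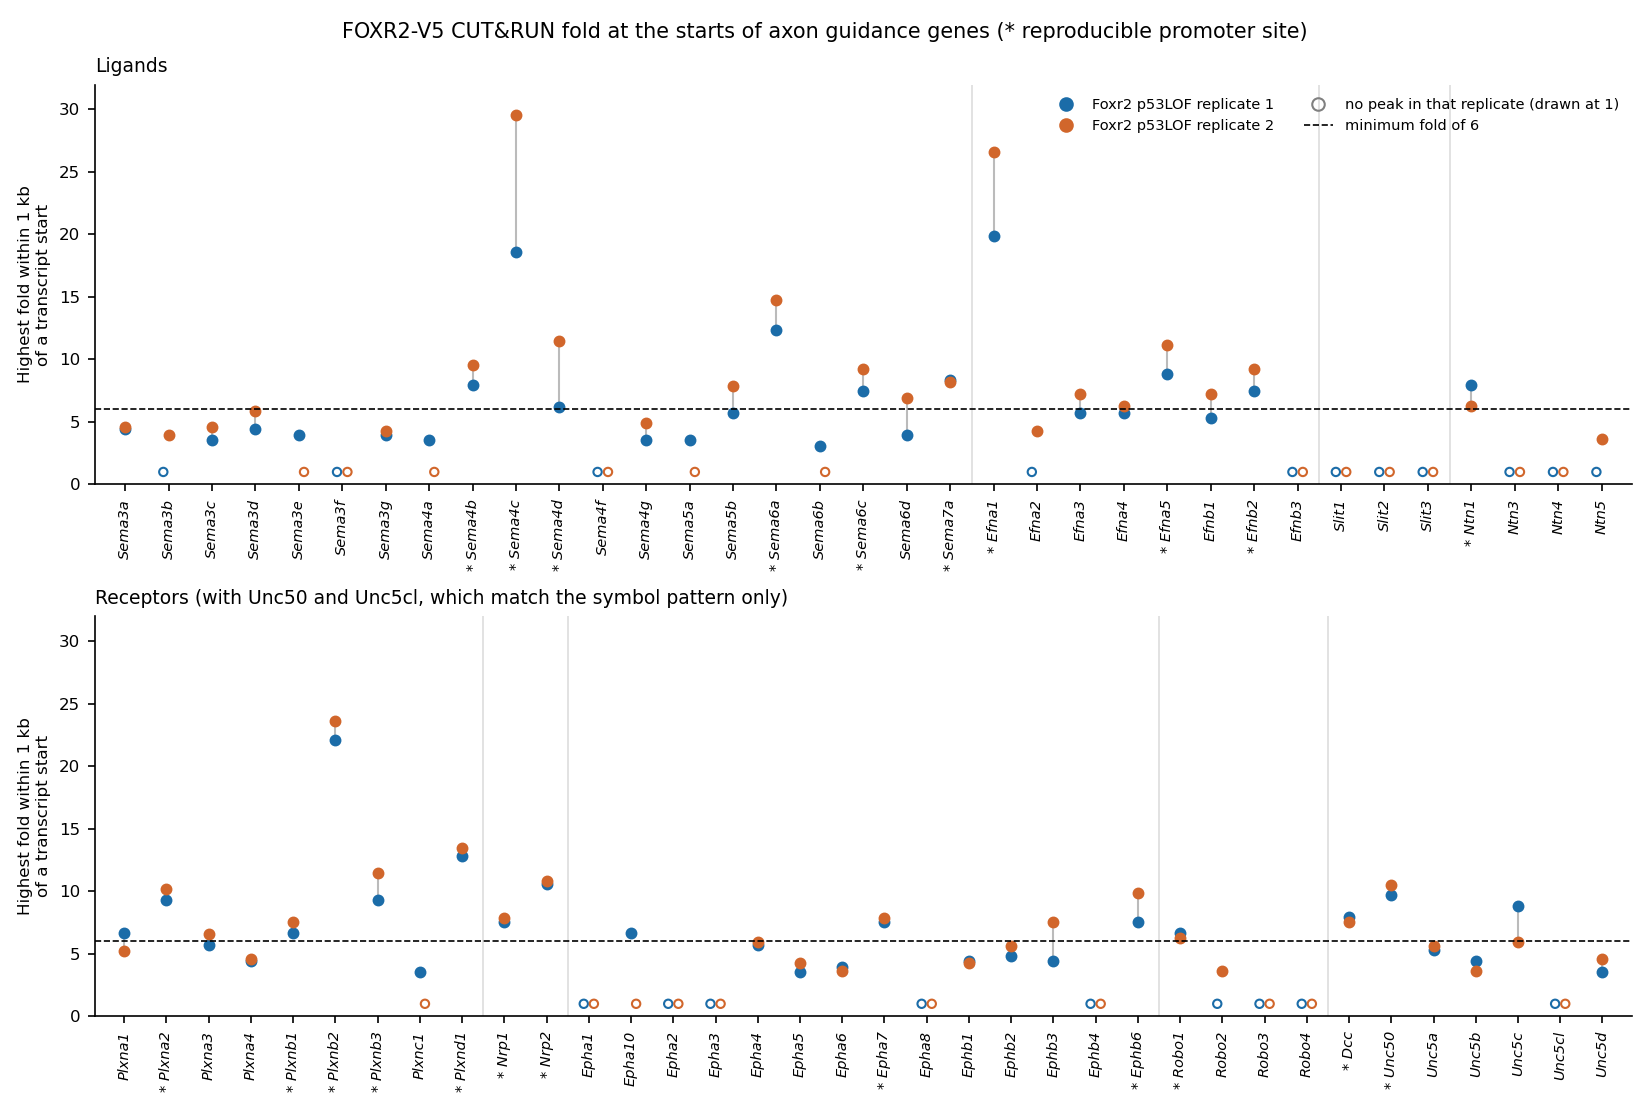
Highest CUT&RUN fold of any deposited peak within 1 kb of a transcript start, for each of the 71 members (x axis, ligands above and receptors below, in family order), in Foxr2 p53LOF replicate 1 (blue) and replicate 2 (orange), joined by a grey line. Open circles mark a replicate with no peak there, the dashed line is the minimum fold of 6 and asterisks mark the 22 members with a reproducible promoter site; Sema4c, Efna1 and Plxnb2 stand above the rest in both replicates.

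Semaphorins, the largest ligand family, had a site in the region at 11 of 20 genes (55.0%) and a promoter site at 6 (30%), against 50.0% and 39.3% of all genes. These 6 belong to the class 4, 6 and 7 genes, which encode membrane-anchored proteins, whereas the class 3 genes, which encode secreted proteins, had none in 7 (4 of the 7 had a site elsewhere in the region). The 2 class 5 genes, which also encode transmembrane proteins, had no site. The classes are small, and the difference between them was not tested. Sema4c, a class 4 semaphorin that binds plexin B2, had the highest semaphorin promoter fold, 18.6 in replicate 1 and 29.6 in replicate 2, from 41 and 89 fragments. The counts carry 95% Poisson intervals of 29.4 to 55.6 and 71.5 to 110, which cover counting error only. The Sema4c site (chr1:36555544-36559388, mm10) spans 3845 bases with its summit in an untranslated exon, and all 6 protein-coding transcripts of the gene start within 1 kb of it.

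Sema6a, a transmembrane semaphorin that binds class A plexins, had a promoter site of 12.4 and 14.8 that ran over 5616 bases and 4 of its 7 transcript starts. Sema4d, a ligand of plexin B1, had 6.19 and 11.5 in a peak whose edge reached its start. The summits lay 1751 and 1125 bp past the nearest start, in replicate 1 in an intron. Replicate 1 only just passed the minimum and replicate 2 lay well above it. Of the 23 promoter sites, 2 (those of Sema4d and Efna5) had their summits over 1 kb from the nearest start in both replicates and 3 (Sema6a, Nrp2 and Dcc) in replicate 2 alone. Sema4b had promoter sites at both of its starts. Its first was at 7.95 and 8.87, and its second at 6.63 and 9.53. Sema7a, which is held to the membrane by a lipid anchor, had 8.40 and 8.21, and Sema6c had 7.51 and 9.20. In replicate 1 Sema4d rested on 13 fragments, the fewest that pass, and Sema6c on 16.

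The remaining semaphorins split into weak and absent peaks. Of the 14 without a promoter site, 7 had a start peak in both replicates, 5 in 1 replicate and 2 in neither (Sema3f and Sema4f). Sema5b, which has thrombospondin repeats, reached 5.74 and 7.88, 1 fragment short of the minimum in replicate 1. Sema6d gave 3.98 and 6.90. Sema3a, the classical repellent that signals through neuropilin 1, gave 4.42 and 4.60 and had no reproducible site in a region of 497.2 kb.

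Plexins, the semaphorin receptors, had a promoter site at 5 of 9 genes (55.6%, against 39.3% of all genes). All 3 class B plexins had one (Plxnb1, Plxnb2 and Plxnb3), as did Plxnd1, against 1 of 4 class A plexins and not the single class C gene, with no test between classes this small. Plxnb2, a receptor of class 4 semaphorins in neural progenitors, gave 22.1 and 23.7 from 49 and 71 fragments (intervals 36.3 to 64.8 and 55.5 to 89.6), the highest lower fold of any member site. Its site (chr15:89179184-89182957, 3774 bases) has its summits 155 and 185 bp before the start. Plxnd1, the receptor of Sema3e in vessels and axons, gave 12.8 and 13.5. Plxnb3 gave 9.28 and 11.5 and Plxna2, a partner of class 3 and class 6 semaphorins, 9.28 and 10.2. Plxnb1 was lower, at 6.63 and 7.56. Plxnb3 and Plxna2 rested on the same 20 fragments in replicate 1. In replicate 2 they rested on 34 and 30, with overlapping intervals (23.5 to 47.5 and 20.2 to 42.8).

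The other class A plexins had start peaks in both replicates that did not pass. Plxna1 gave 6.63 and 5.26, Plxna3 5.74 and 6.57, and Plxna4 4.42 and 4.60. Plxna1 and Plxna3 thus passed in 1 replicate each, not the same one. Plxnc1, the receptor of Sema7a, had a start peak in replicate 1 alone, at 3.54.

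Both neuropilins, the co-receptors that class 3 semaphorins bind directly, had promoter sites (39.3% of all genes had one). Nrp2 gave 10.6 and 10.8 at its start (chr1:62701248-62704591) and Nrp1 7.51 and 7.89. The Nrp2 region held 2 further sites inside introns. The nearer one, at 9.72 and 10.8, had its replicate 1 summit 3202 bp past the start. In replicate 2 a single peak covered both sites with its summit 2926 bp past the start, so the 10.8 of both is 1 measurement.

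**Figure D2:**
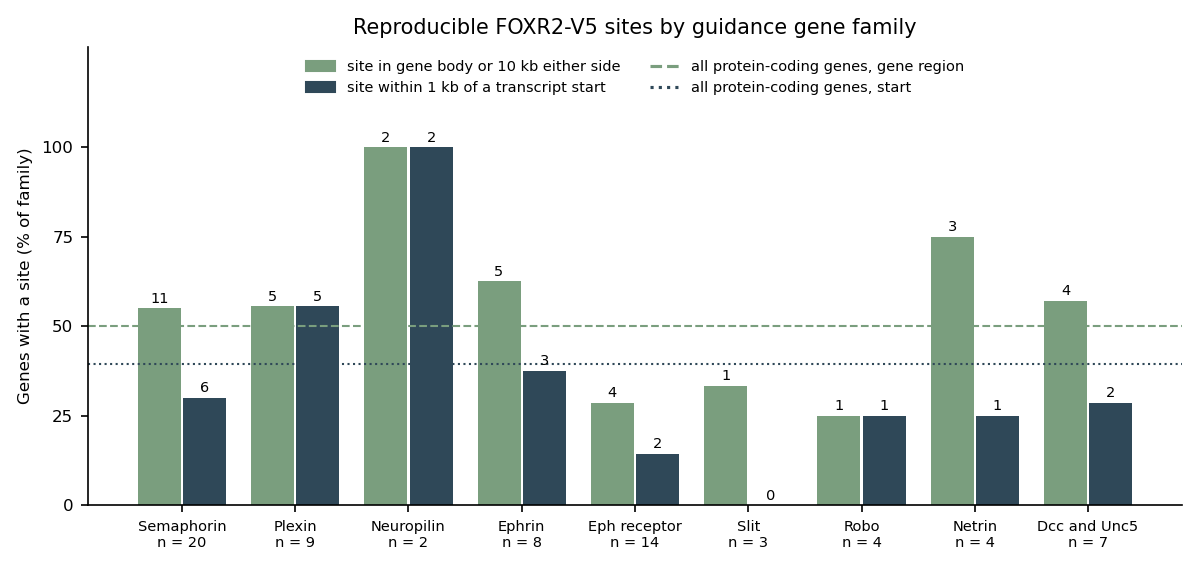
Share of genes (y axis, percent of the family) with a reproducible FOXR2-V5 site in the gene region (green) and within 1 kb of a transcript start (dark blue) for the 9 families, with the number of genes above each bar and the family size below it. The dashed and dotted lines are the shares of all protein-coding genes, 50.0% and 39.3%; plexins and neuropilins lie above the dotted line and Eph receptors, Slits and Robos below both lines, with no test because families are small and were chosen by name.

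Ephrins, the membrane-bound ligands of Eph receptors, had a region site at 5 of 8 genes (62.5%, against 50.0% of all genes) and a promoter site at 3 (37.5%, against 39.3%). Efna1, a lipid-anchored ephrin that binds the EphA receptors, gave 19.9 and 26.6 from 44 and 80 fragments at its start (chr3:89278853-89282079), over all 3 of its transcript starts. Efna5, which maps retinal and cortical projections, gave 8.84 and 11.2, with the summits 1314 and 1560 bp upstream of its nearest start. Efnb2, a transmembrane ephrin of arteries and neural crest, gave 7.51 and 9.20. Efna1 stands apart from the other 2 in both replicates.

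The neighboring ephrin genes Efna3 and Efna4 gave 5.74 and 7.23, and 5.74 and 6.24, so each missed the minimum in replicate 1 by 1 fragment. Efnb1 gave 5.30 and 7.23, and its failing value also came from replicate 1. Efna2 had a start peak in replicate 2 alone, at 4.27, and Efnb3 had none.

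Eph receptors, the receptor tyrosine kinases of the pathway, had few sites. One lay in the region of 4 of 14 genes and at the promoter of 2, where all genes had 50.0% and 39.3%. Epha7, which is expressed in cortical progenitors, gave 7.51 and 7.89 with a summit 2 and 23 bp past its start. Ephb6, an Eph receptor without kinase activity, gave 7.51 and 9.86. In this family 3 members had no peak at all in the gene region in any of the 4 libraries: Epha2, Epha8 and Ephb4. They were the only members of the 71 for which this was so.

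Another 6 Eph receptors had start peaks in both replicates that did not pass the filters. Epha4, which binds both ephrin classes, came closest with 5.74 and 5.91, 1 fragment short in each replicate. Ephb3 gave 4.42 and 7.56, passing in replicate 2 alone. Ephb2 gave 4.86 and 5.58, Ephb1 4.42 and 4.27, Epha6 3.98 and 3.61 and Epha5 3.54 and 4.27. Epha10 had 6.63 in replicate 1 and no peak in replicate 2.

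Slits and Robos, the midline repellents and their receptors, were nearly bare at their starts. A promoter site was at 0 of 3 Slits and 1 of 4 Robos, against 39.3% of all genes, with no test in families this small. Slit1, Slit2 and Slit3 had no peak within 1 kb of a start in either replicate. Among the Robo receptors only Robo1 had a promoter site, at 6.63 and 6.24 from 14 and 18 fragments, the fewest that pass in replicate 2. Robo2 had a start peak of 3.61 in replicate 2 alone, and Robo3 and Robo4 had none. Robo1 lost its site when folds were divided by the level of chromosome 16 (1.08 and 1.13 times the library median).

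Netrins had a site in the region at 3 of 4 genes (75%) and a promoter site at 1 (25%), and the Dcc and Unc5 genes, Unc50 and Unc5cl counted, at 4 of 7 (57.1%) and 2 (28.6%), against 50.0% and 39.3% of all genes. Ntn1, the netrin that attracts commissural axons, had a promoter site at 7.95 and 6.24, and it was the only netrin with one. Dcc, the attractive netrin receptor, gave 7.95 and 7.56 at its start, although the replicate 2 summit lay 2092 bp into the gene. Unc5c, a repulsive netrin receptor, gave 8.84 and 5.91 at its start, 1 fragment short of the minimum in replicate 2, and its sites lay in introns instead. Unc5a gave 5.30 and 5.58, Unc5b 4.42 and 3.61 and Unc5d 3.54 and 4.60, all below the minimum in both replicates. Unc50, the gene caught by name, gave 9.72 and 10.5 at a start it shares with Coa5, a cytochrome c oxidase assembly factor.

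The bases before the starts of 3 high promoters and of bare CpG-rich promoters were compared, since letters shared or missing there can be read directly. The sequences below are the 200 bases before a RefSeq start (GRCm38.p6, the mm10 build), all written 5′ to 3′ on the strand of the gene, with the letters GGGCGGG or their reverse complement CCCGCCC, the core bound by SP and KLF factors, in capitals. The windows are chr15:89180789-89180988 (minus strand), chr3:89279646-89279845 (minus), chr6:115995006-115995205 (minus), chr4:136956817-136957016 (minus) and chr10:93640849-93641048 (plus). The first 3 are the promoter sites with the highest lower folds among windows free of annotated exons, so that Sema4c is not shown, and Epha8 and Ntn4 had no peak at a start in any library.
Plxnb2: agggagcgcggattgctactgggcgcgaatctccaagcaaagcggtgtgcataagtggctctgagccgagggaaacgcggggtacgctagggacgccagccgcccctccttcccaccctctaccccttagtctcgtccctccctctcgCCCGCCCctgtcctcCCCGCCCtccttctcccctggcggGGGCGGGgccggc
Efna1: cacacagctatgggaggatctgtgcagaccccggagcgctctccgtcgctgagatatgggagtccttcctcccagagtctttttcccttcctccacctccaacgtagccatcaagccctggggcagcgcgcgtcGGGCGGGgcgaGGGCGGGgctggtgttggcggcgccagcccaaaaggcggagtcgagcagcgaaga
Plxnd1: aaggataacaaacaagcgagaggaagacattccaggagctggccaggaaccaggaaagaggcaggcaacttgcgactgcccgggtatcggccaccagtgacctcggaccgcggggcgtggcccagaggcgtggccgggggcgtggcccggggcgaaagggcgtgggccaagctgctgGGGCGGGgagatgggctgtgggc
Epha8: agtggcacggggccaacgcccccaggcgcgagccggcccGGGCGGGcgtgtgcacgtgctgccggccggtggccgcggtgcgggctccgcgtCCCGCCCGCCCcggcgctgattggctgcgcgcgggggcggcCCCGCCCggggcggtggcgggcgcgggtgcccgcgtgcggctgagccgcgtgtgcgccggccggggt
Ntn4: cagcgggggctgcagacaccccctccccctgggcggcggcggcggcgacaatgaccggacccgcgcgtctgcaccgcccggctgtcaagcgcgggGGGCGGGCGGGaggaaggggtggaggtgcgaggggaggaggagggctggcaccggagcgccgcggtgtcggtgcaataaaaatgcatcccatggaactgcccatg

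Epha8 and Ntn4 were picked for their CpG content, so their base composition is no finding. The GC content was 69.5% for Plxnb2, 65.5% for Efna1, 68% for Plxnd1, 85.5% for Epha8 and 73% for Ntn4, and every one of these 5 windows holds the SP and KLF letters. RefSeq gave 77 promoter windows of 300 bases (250 before a start and 50 after it) for 61 of the 71 members. GGGCGGG on either strand was found in 47 of the 77 (61.0%), against 35.0% of 20150 windows of all protein-coding genes. Of the 21 member windows inside a reproducible site, from 17 genes, 18 held it (85.7%), against 52.4% of all windows inside a site. Of the 56 member windows in no site 29 held it (51.8%), against 24.1% of all windows in no site. The members' share was thus the higher one with and without a site. The median GC was 66.3% in those 21 windows and 61.7% in the 56 member windows in no site, and the median ratio of observed to expected CpG was 0.781 and 0.56.

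CCGGAAG, the letters of ELK and GABP type ETS factors, ran the other way. They were in 3 of the 77 member windows (3.90%), those of Ephb6, Plxnb1 and Unc50, against 11.9% of all windows, and all 3 of these lay inside a site (3 of 21, 14.3%, against 21.6%). GTAAACA, the forkhead letters, was in 0 of 77 member windows and in 2.96% of all. AGGAAGT, a wider ETS core, was in 4 windows (5.19%, against 9.17%), ACAATGG (SOX) in 2 (2.60%, against 2.91%) and AAGATGG (YY1) in 5 (6.49%, against 6.30%). GCGCATGCG (NRF1) was in 0, against 2.45%, and CACGTG (E-box) in 5 (6.49%, against 8.03%). All letters were searched on both strands and may overlap.

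Members' windows were richer in CpG than those of all genes, with a median ratio of observed to expected CpG of 0.659 against 0.588 and a median GC of 64.3% against 57%. Yet 27.3% of them lay in a site, against 38.7%. In the highest of 4 equal classes of CpG ratio (above 0.833) 5 of 15 member windows were in a site, against 74.1% of all windows of that class. Slit3 (CpG ratio 0.928), Epha8 (1.06), Ntn4 (0.839) and Slit2 are among the CpG-rich windows without a site. In the class below it (0.588 to 0.833) 14 of 29 were in a site (48.3%, against 58.4%). In the 2 lower classes it was 1 of 23 (4.35%, against 19.8%) and 1 of 10 (10%, against 2.56%), so the members were not below all windows in every class.

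Over the 62 sites of the member regions, 200 bases centered between the replicate summits held CCGGAAG at 3 (4.84%, against 5.63% of 11943 sites of the series on assembled chromosomes) and GTAAACA at 1 (1.61%, against 1.96%). GGGCGGG was at 11 of them (17.7%, against 17%). At sites within 1 kb of any gene's start it was at 7 of 33 (21.2%, against 22.9%), and at sites at no start at 4 of 29 (13.8%, against 5.78%). Where the summits lay apart, the window fell between them, and where 1 replicate's peak covered more than 1 site it could fall outside the site. At the Nrp2 promoter site, for instance, the summits lay 103 and 2926 bp past the start, and the window held neither. The counts are therefore not of letters at the summits of every site. Stretches with CCGGAAG are shown where these letters lie nearest to a summit outside an exon, 87, 106 and 120 bp away. For the forkhead letters 1 stretch is shown, the nearest outside every annotated exon, at 248 bp. Nearer forkhead letters at Nrp2 (39 bp) and Efna1 (196 bp) lie in exons of other annotated transcripts and are not shown. All are on the plus strand of mm10: Sema4b at chr7:80198166-80198232, Efna3 at chr3:89315662-89315728, Nrp2 at chr1:62706715-62706781 and Sema4d at chr13:51792257-51792343. Capitals mark CCGGAAG in the first 3 and GTAAACA in the last.
Sema4b: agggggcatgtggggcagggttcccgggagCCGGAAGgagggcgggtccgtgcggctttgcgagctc
Efna3: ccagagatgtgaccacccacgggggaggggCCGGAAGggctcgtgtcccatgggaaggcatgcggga
Nrp2: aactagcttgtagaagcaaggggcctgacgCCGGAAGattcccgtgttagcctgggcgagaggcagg
Sema4d: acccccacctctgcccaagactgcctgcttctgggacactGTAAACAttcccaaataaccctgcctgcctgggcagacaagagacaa

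By position, 23 of the 62 sites were at a start of the member (22 of them at no other gene's start), 10 at the start of another gene alone and 29 at no start. Of the last, 25 lay in introns, 2 upstream of the gene, 1 downstream and 1 in a coding exon (Efna3, at 7.51 and 11.2). Sites at no start made up 46.8% of gene and site pairs, against 20.1% over all genes. Member regions are long, with a median of 66.3 kb against 37.4 kb, and 30 of the 71 fall in the class above 130 kb that holds 2191 of all genes. Within that class the share of pairs at no start was 66.7% for members and 49.4% for all genes. Per length the members held 4.64 sites per Mb of gene region, against 11.2. These densities were not matched for length, and whether the gap remains among regions of similar length was not tested. By family the density ran from 0.731 in Robos (median region 288.8 kb) to 15 in ephrins (29.97 kb). Neuropilins, with long regions (150.1 kb), still held 13.3.

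**Figure D3:**
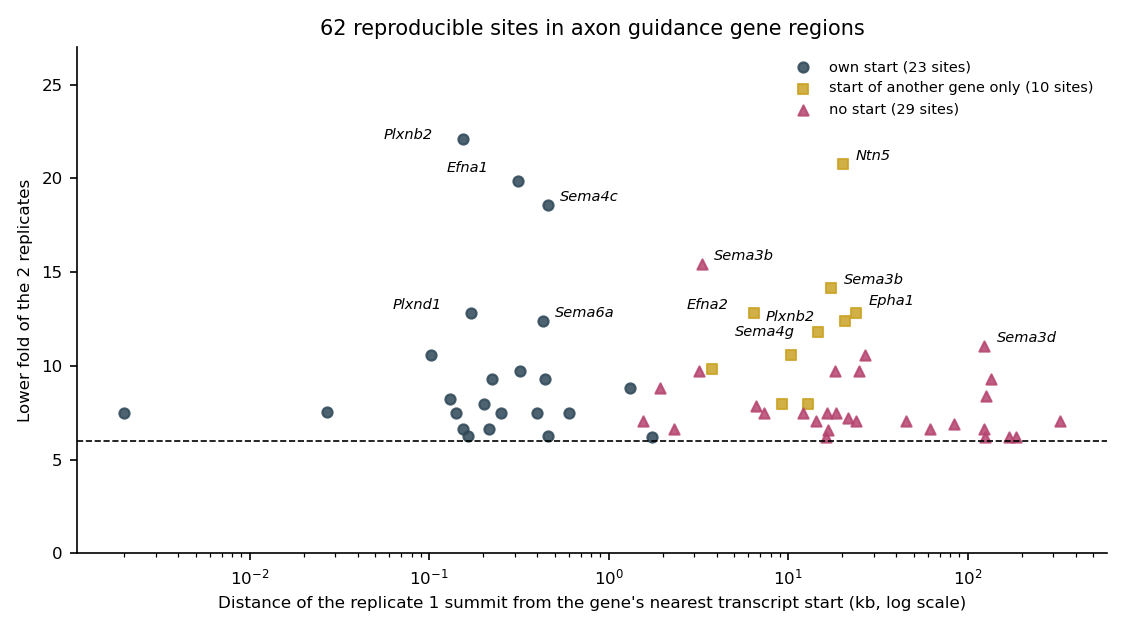
Lower of the 2 replicate folds (y axis) against the distance of the replicate 1 summit from the member's nearest transcript start (x axis, kb, log scale) for the 62 reproducible sites in member regions. Circles are sites at a start of the member, squares sites at another gene's start alone and triangles sites at no start, and the dashed line is the minimum fold of 6; the highest sites lie either within 1 kb of the member's own start (Plxnb2, Efna1, Sema4c) or at another gene's start (Ntn5).

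Split by length of the gene region, the members' share with a site in the region did not differ from that of all genes in one direction. In the class from 26.5 to 37.4 kb, 13 of 17 had a site in the region, against 50.0% of all genes of that length. Of these 13, Sema4g, Efna2, Epha1 and Ntn5 had only sites at another gene's start, and without such sites 9 of 17 had one, against 42.1%. With all sites counted, it was 6 of 15 from 37.4 to 65.2 kb, against 57.6%, and 2 of 6 from 65.2 to 130 kb, against 61.1%. Above 130 kb it was 14 of 30, against 56.9%, and up to 26.5 kb 1 of 3, against 33.1%. At promoters the members lay below all genes in every class. From the shortest class to the longest, it was 0 of 3 (against 23.2%), 6 of 17 (38.7%), 6 of 15 (47.9%), 1 of 6 (51.2%) and 9 of 30 (42.4%).

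Intronic sites at no start had lower folds from 6.19 to 11.1 and a median of 7.07. The median was 7.75 at sites at an own start only, 7.92 over all 62 member sites and 8.84 over the series. Sema4d had the most sites of any member, 5, of which 4 lie in introns away from starts. The strongest of them (chr13:51760285-51763143) gave 10.6 and 14.1, and it shares its replicate 2 peak with the site next to it. Sema3d, a secreted semaphorin, had 4 sites, all intronic, spread from 16.7 to 124 kb past its start, while its start peaks stayed below the minimum at 4.42 and 5.91. The farthest, at chr5:12507032-12508407, gave 11.05 and 11.5, and the other 3 gave 8.40 and 6.57, 8.84 and 7.23, and 8.84 and 6.90. At those 3 sites replicate 1 had the higher fold, whereas replicate 2 was higher at 51 of the 62 member sites (82.3%, against 75.1% in the series).

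Plxna2, Plxnb2, Nrp2, Efna1, Sema4b and Dcc followed with 3 sites each. Plxna2 had intronic sites 122865 and 127478 bp past its start, at 6.63 and 10.5 and at 8.40 and 11.2. Dcc, the longest member at 1100 kb, had intronic sites 125 kb and 328 kb past the start, at 6.19 and 6.57 and at 7.07 and 10.2. Unc5c had an intronic site 135 kb past its start at 9.28 and 12.8 (chr3:141599868-141602533), the highest of any netrin receptor, and Slit1 had its only site 45.6 kb into the gene, at 7.07 and 9.86. Ephb2, an Eph receptor of commissural axons, had intronic sites at 7.51 and 7.89 and at 6.63 and 7.56. Unc5a had one at 7.95 and 7.89, Sema3e one at 6.19 and 6.57, and Sema3g a site downstream of the gene at 7.51 and 7.89. Ephb2, Unc5a, Sema3e and Sema3g had no promoter site.

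The highest site away from every start was upstream of Sema3b, a secreted semaphorin described as a candidate tumor suppressor. It gave 16.4 and 15.4 from 36 and 46 fragments at chr9:107611533-107613586, 3.29 kb before the nearest Sema3b start, while the Sema3b starts had a single peak of 3.94 in replicate 2. The 200 bases around the summits of this site (chr9:107612412-107612611) and of the farthest Sema3d site (chr5:12507432-12507631), both on the plus strand of mm10, are shown as the strongest stretches away from starts. Capitals again mark GGGCGGG, which is present once at Sema3b and absent from the Sema3d window.
Sema3b: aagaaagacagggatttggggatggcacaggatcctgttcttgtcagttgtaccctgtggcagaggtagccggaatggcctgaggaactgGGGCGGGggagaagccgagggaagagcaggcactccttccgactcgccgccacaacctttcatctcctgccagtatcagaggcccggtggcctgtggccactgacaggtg
Sema3d: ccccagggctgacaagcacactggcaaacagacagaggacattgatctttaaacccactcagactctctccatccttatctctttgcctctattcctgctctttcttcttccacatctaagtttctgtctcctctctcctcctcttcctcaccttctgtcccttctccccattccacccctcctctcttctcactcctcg

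Several members held a site that lies at the start of a neighboring gene. Ntn5 gave 20.8 and 25.6, a lower fold that only Plxnb2 exceeded among the members, but that site lies at a start of Dbp, a circadian PAR bZIP transcription factor, 20.2 kb past the Ntn5 start. Epha1 had 12.8 and 17.7 at the start of Zyx, which encodes the focal adhesion protein zyxin. Efna2 had 12.8 and 16.4 at the start of 1600002K03Rik, and Sema4g 12.4 and 11.8 at the starts of Mrpl43 and Twnk, both mitochondrial. Ntn3 had 10.2 and 9.86 at the start of Tbc1d24. For these 5 genes no site remained at an own start or away from starts.

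Another 4 members had such a site beside 1 that was not at another gene's start. Sema3b had 14.1 and 17.1 at the start of Ifrd2, and Sema4c 10.6 and 11.2 at that of Ankrd39. Plxnb2 had 12.4 and 12.8 at the start of Mapk11, a p38 kinase, and Efna1 had sites below 10 at those of Dpm3 and Slc50a1. Sema4a had no reproducible site, although a replicate 2 peak of 28.9 crossed the outer edge of its region, which the matching replicate 1 peak did not reach.

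The genes that work beside the ligands and receptors were then counted, from a list of 28 co-receptors and other cues and 48 intracellular effectors. Of the co-receptors and other cues 17 (60.7%) had a site in the region and 12 (42.9%) a promoter site. Of the effectors, which carry the signal to the cytoskeleton, 37 (77.1%) had a site in the region and 34 (70.8%) a promoter site, against 50.0% and 39.3% of all genes. Effector gene regions are long too, with a median of 134 kb. The partner list was chosen with earlier results of these data known, and the difference between effectors and members was not tested.

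The highest effector promoters came near the folds of Plxnb2 and Efna1 or passed them. Dpysl2, the collapsin response mediator that binds tubulin downstream of Sema3a, gave 23.9 and 33.2. Srgap2, a signaling protein of the Slit and Robo pathway, gave 23.4 and 37.5 at a start it shares with Fam72a. Rnd2, a small GTPase of migrating neurons, gave 23.0 and 24.97 beside a start of Vat1. Tiam1, an exchange factor for Rac, gave 21.2 and 23.7, and Cfl1, the actin-severing protein cofilin, gave 19 and 22.7 at a start near that of Mus81. These 5 genes are the highest effectors in both replicates.

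Abl1, a kinase that acts downstream of Robo, gave 14.6 and 20.4. Ptk2, the focal adhesion kinase, gave 13.7 and 15.1, Rasa1, a Ras GTPase-activating protein, 13.3 and 14.1, and Farp2, a Rac exchange factor bound by plexin A, 12.8 and 14.5. Among the co-receptors Cntn1, a contactin adhesion molecule, gave 22.5 and 26.3, and Fzd3, the next highest, gave 10.2 and 14.1. Cntn1 alone of the 12 co-receptors with a promoter site stood above a fold of 11 in both replicates.

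**Figure D4:**
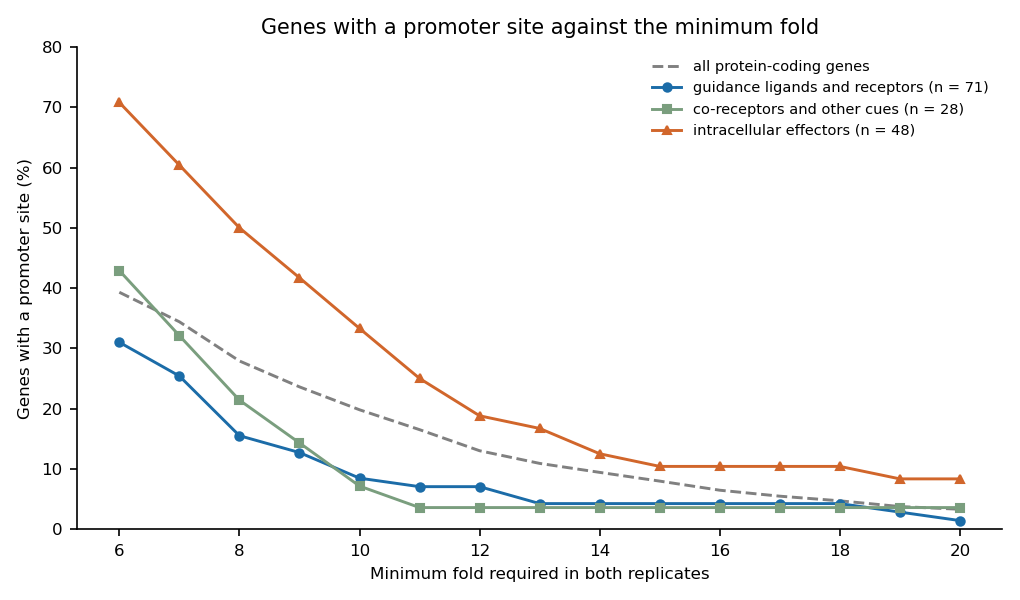
Share of genes with a promoter site (y axis, percent) against the minimum fold required in both replicates (x axis, 6 to 20, other filters kept) for the 71 guidance ligands and receptors (blue circles), 28 co-receptors and other cues (green squares), 48 intracellular effectors (orange triangles) and all protein-coding genes (grey dashes). At 6 the shares are 31.0%, 42.9%, 70.8% and 39.3%, and at 10 they are 8.45%, 7.14%, 33.3% and 19.8%; the member curve runs below that of all genes at every minimum drawn.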

How the data were processed

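Peaks were measured by V5 CUT&RUN in 2 Foxr2 p53LOF and 2 V5 control libraries after light formaldehyde cross-linking. The authors trimmed reads with Trimmomatic 0.39, aligned them to mm10 with BWA 0.7.17, removed duplicates with Picard 2.26.6 and called peaks for each library with MACS2 2.2.7.1. HOMER 4.11 is also named in the submitters' processing notes. No input library is named for the calling, so each fold is set against its own library's background. The deposited fold is a ratio, the deposited peak significance is a −log10 p and a −log10 q that MACS2 set per library, and the deposited score follows from the −log10 q. Summit offsets were used for distances.

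Read totals were not used here, so precision was taken from fragments at the summit. The background of each library (1.26, 2.04, 1.69 and 0.642 fragments) was recovered as the value that turns folds into whole fragments (within 0.02), checked on simulated data, and it gave whole numbers for 100% of the peaks used. Filters kept 13418 (42.1%) and 14864 (38.5%) peaks of the Foxr2 p53LOF replicates. Genes came from GENCODE M21 (GRCm38.p6), promoter windows from RefSeq, and 82 protein-coding genes without a protein-coding transcript start were left out of promoter counts. Analyses used Python 3.11.15 with numpy 2.4.6, scipy 1.17.1 and samtools 1.23.1. Counts of genes were set beside the share of all protein-coding genes with no test, and peaks per library were compared with an exact permutation test. Full values are given for members with a promoter site, the members with most sites, those whose highest site is away from starts, and the 10 partner genes with the highest promoter folds. Members just under the minimum fold were named after their values were seen. The members and the partner list were chosen with earlier results of these data known. The alternatives were other minimum folds and q values, no control removal, no length limit, a stricter overlap, no filters, folds scaled by chromosome, other windows and flanks, and each library left out.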

Additional observations from a re-analysis of the deposited data

How the results depend on the processing

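Counts of genes and sites come from no test and could hold no replicate block. For peaks per library, shuffling labels only within replicate numbers (the replicate block, chosen after seeing the data) kept the difference of 256 peaks with an exact two-sided permutation p = 0.5, the smallest that 2 pairs allow; the labels do not say that a number marks a shared batch. Of the 15 alternatives to the count of members with a region site, 13 stayed within 1.5 times the reported value, as did 14 of 16 for promoter sites and 12 of 15 for the number of sites. With a fold above 10, 13 members (18.3%, against 27.8% of all genes) kept a region site and 6 (8.45%, against 19.8%) a promoter site, on 16 sites. At that minimum 24 partner genes (31.6%) kept a region site and 18 (23.7%) a promoter site, nearer to the shares of all genes than at a fold of 6. With no filters, 60 members had a region site and 44 a promoter site, on 175 sites, and with a flank of 50 kb there were 130 sites. The peaks in member regions fell to 75 and 87 with fold and −log10 q above 6, rose to 388 and 448 with a flank of 50 kb, and with that flank control replicate 1 had 1. With Foxr2 p53LOF replicate 2 alone, 48 members (67.6%, against 55.1% of all genes) had a region site, and with replicate 1 alone 43 (60.6%, against 53.1%). Leaving out either control replicate moved no count of members. Control removal and the length limit changed no member's highest fold. Dividing folds by the chromosome level moved 15 of 36 highest folds by more than the replicate SD and left 36 members with a region site, but Efna4 and Epha4 came in and Robo1 and Sema3e dropped out. The same scaling gave 25 members a promoter site (35.2%, against 37.5% of all genes), where 22 (31.0%, against 39.3%) were reported. The gap to all genes at promoters was thus smaller with it. Removing Unc50 and Unc5cl, single minimum folds from 6 to 20 and leaving libraries out of the peak totals were chosen after seeing the data. Depth limits the members near the minimum, since 13 and 18 fragments decide a call there. A library with 1 fragment fewer at the summit would lose the only site of Sema3e, the promoter site of Sema4d and 1 intronic site each of Sema4d, Dcc and Unc5c (replicate 1), or the promoter sites of Robo1 and Ntn1 (replicate 2).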
